A study of Mus musculus with 9 samples.

Results

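The mitochondrial ribosomal protein genes of the mouse lung were taken as the protein-coding genes whose symbol is Mrpl or Mrps followed by a number and at most 1 letter. The deposited table holds 78 such genes among 55851, and 76 of them had enough signal to be tested. RNA of total lung cells from female C57BL/6J mice was sequenced in 9 libraries, 3 for each of 3 groups. Wild-type mice challenged with PBS, that is phosphate-buffered saline, gave replicates 1, 2 and 3 (WT PBS). Wild-type mice challenged with ovalbumin gave replicates 5, 6 and 9 (WT OVA). Mice lacking DJ-1 and challenged with ovalbumin gave the libraries DJ1_KO_OVA_263, DJ1_KO_OVA_266 and DJ1_KO_OVA_267 (DJ-1 KO OVA). Values of a group are given in these orders. Every library carries a time label of 7 weeks, and no label says whether that is an age or the length of a protocol. Ovalbumin is a protein used to provoke allergic airway inflammation in mice, and DJ-1, the product of Park7, is known for its role in the defence against oxidants. The labels name no knockout group given saline, no allele or cell type for the knockout, and no number of animals behind a library, so the spread behind the p-values is that between libraries and may be technical.

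Mitochondria carry their own ribosomes, which translate the few proteins that the mitochondrial genome encodes, all of them subunits of the respiratory chain or of ATP synthase. The 2 ribosomal RNAs of this ribosome, mt-Rnr1 and mt-Rnr2, come from mitochondrial DNA, while every one of its proteins is made from a nuclear gene, translated by cytosolic ribosomes and imported. Some of these proteins descend from the bacterial ancestor of the organelle, and others are found only in mitochondria. Without a working mitochondrial ribosome, cells cannot assemble the respiratory chain.

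By textbook assignment 51 of the 78 genes encode large-subunit proteins, 30 with a bacterial counterpart and 21 specific to mitochondria. A further 26 encode small-subunit proteins, 16 with a bacterial counterpart and 10 without. Mrps18a and Mrps30 are counted with the large subunit despite their names. Mrps36 keeps a ribosomal name but encodes a component of the 2-oxoglutarate dehydrogenase complex. The 78 genes lie on 17 chromosomes, 11 of them on chromosome 11 and 8 on chromosome 17. In the GENCODE M21 annotation of GRCm38, 18 of the 78 (23.1%) have another coding gene on the opposite strand whose start lies within 1000 bases of their own, compared with 6.77% of 22028 coding genes. Among these pairs are Mrps18c with Helq at 29 bases, Mrpl54 with Apba3 at 26 bases and Mrpl30 with Mitd1 at 66 bases.

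Start-site windows of 300 bases, 250 before and 50 after the start, were available from RefSeq (GRCm38.p6) for 69 of the 78 genes, in 75 windows. The letters of the binding motif of NRF1 (GCGCA, any base, then GCGC), an activator of nuclear genes for mitochondrial proteins, stood in 13 of the 75 windows (17.3%) and in 6.38% of 21262 windows of coding genes. The ETS motif CCGGAAG, read by factors such as GABPA, stood in 26 (34.7%) and 11.6% respectively, and the YY1 motif AAGATGGCG in 8 (10.7%) and 1.83%. Over all 32851 windows the shares were 4.60%, 8.86% and 1.40%. At least 1 of the 3 motifs was found in 41 member windows (54.7%), against 17.9% of coding windows. Both strands were searched, and the motifs share no common stretch longer than a few letters. A match describes the letters in the window and does not show binding. Windows of 4 genes are printed from 130 bases before to 20 bases after the start, to show an NRF1 match (Mrpl14), an ETS match (Mrpl33), ETS and YY1 matches together (Mrps18a) and a window with none of the 3 (Mrps2); capitals mark the matches. They lie at chr17:45686219-45686368 (plus strand) for Mrpl14, chr5:31613821-31613970 (plus) for Mrpl33, chr17:46110874-46111023 (plus) for Mrps18a and chr2:28467936-28468085 (plus) for Mrps2.
Mrpl14: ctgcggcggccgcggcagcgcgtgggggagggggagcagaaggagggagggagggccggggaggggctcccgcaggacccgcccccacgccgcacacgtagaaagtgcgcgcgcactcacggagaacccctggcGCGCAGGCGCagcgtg
Mrpl33: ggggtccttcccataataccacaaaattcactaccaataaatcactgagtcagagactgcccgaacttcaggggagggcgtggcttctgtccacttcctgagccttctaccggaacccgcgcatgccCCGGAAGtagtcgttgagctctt
Mrps18a: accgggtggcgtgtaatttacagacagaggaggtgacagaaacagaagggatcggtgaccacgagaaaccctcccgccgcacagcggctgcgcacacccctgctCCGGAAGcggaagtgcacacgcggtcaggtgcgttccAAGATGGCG
Mrps2: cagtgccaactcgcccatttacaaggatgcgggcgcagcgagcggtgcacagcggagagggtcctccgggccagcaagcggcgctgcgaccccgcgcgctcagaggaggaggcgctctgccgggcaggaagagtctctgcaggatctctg

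Levels are given as FPKM, the reads of a gene divided by the length of its exons and by the size of the library, which allows genes to be compared per length. The exon length used is the union of every annotated exon, so a gene with long rarely used exons reads low. The median of the 76 tested genes' mean FPKM over 9 libraries was 10.5, with a range from 1.52 to 86.4. Of the 76, 17 had a mean below 5 FPKM, 40 lay between 5 and 20, and 19 were at 20 or more. The highest were Mrps21 (86.4 FPKM), the counterpart of bacterial S21, Mrpl14 (81.3) and Mrpl52 (67.7). The lowest were Mrps23 (1.52), Mrps30 (1.94) and Mrps22 (2.26), all 3 specific to mitochondria. Mrpl53 and Mrps10 were listed at 0 in every library. Of the exon bases of Mrpl53, 88.0% are shared with the exons of another annotated gene, Gm42688, while none of those of Mrps10 are shared. Of the 78 genes, 10 share more than 20% of their exon bases with another gene, Mrps18c (23.2%, with Gm43511) and Mrps27 (24.2%, with 6430562O15Rik) among them, and the sources do not say whether strand entered the counting, so their reads are uncertain.

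The 9 libraries held 20812192 to 29080130 reads, and the tested gene with the fewest had 19 reads in its lowest library. Park7 averaged 5.08 FPKM in the knockout, 57.2 in WT OVA and 46.7 in WT PBS. It fell by 3.42 between the OVA groups on the log2(FPKM + 0.5) scale (limma, Benjamini-Hochberg adjusted p = 0.00019), as the knockout labels state, with some transcript remaining. Markers of type 2 alveolar cells, a type of lung epithelial cell, were detected in each group, with 0 of 8 at 0 reads in all libraries of a group. The deposited values are scaled on the median gene of each library, and their sums differ: 570483 to 602047 in WT OVA, 392285 to 551459 in WT PBS and 308542 to 472548 in DJ-1 KO OVA. Within the groups, DJ1_KO_OVA_266 and WT PBS replicate 3 stood apart from their 2 partners in the levels of the mitochondrial ribosomal protein genes, as given next. DJ1_KO_OVA_266 also did so in related gene groups. The summed FPKM of cytosolic ribosomal protein genes was 21694.5, 46841 and 23781.5 in the 3 knockout libraries. That of nuclear genes for respiratory chain and ATP synthase subunits was 3680, 8081 and 4857. In the fibroblast and matrix markers DJ1_KO_OVA_267 stood apart instead. Several cell marker lists moved with the knockout group. The summed FPKM of 6 neutrophil markers was 12937 to 19183 in WT OVA and 1375 to 4354 in DJ-1 KO OVA, that of 5 B cell markers 268 to 357 and 85.4 to 215, that of 6 fibroblast and matrix markers 164 to 209 and 541 to 1140, and that of 10 cell cycle genes 75.2 to 110 and 143 to 252. That of the 8 type 2 alveolar markers was 32940 to 42001 in WT OVA and 6612 to 14151 in the knockout, with 8 of 8 differences below 0 and 2 called lower. That of 6 airway club and ciliated cell markers was 33698 to 105447 and 24291 to 33043, that of 5 cardiac muscle markers 10.4 to 12.1 and 2.82 to 9.21, and that of 6 T cell markers 74.3 to 120 and 123 to 368, with 3 of the T cell markers called higher. The ranges of the endothelial, macrophage, eosinophil and red blood cell markers overlapped. Differences were below 0 for 7 of 7 endothelial markers, with 1 called lower, and for 5 of 5 red blood cell markers, with 0 called. They were below 0 for 4 of 6 macrophage and 2 of 4 tested eosinophil markers. The endothelial sum was 91.1 to 135 in WT OVA and 22.6, 145 and 45.5 in the 3 knockout libraries. The part of these marker lists in the results below was not tested, and in bulk RNA fewer cells of a type and less RNA per cell cannot be told apart.

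The 76 genes varied from library to library largely together. Each gene's deviation from its own mean over the 9 libraries was taken on the log2(FPKM + 0.5) scale. The median deviation was -0.02, 0.17 and -0.37 in WT PBS replicates 1, 2 and 3, and 0.33, 0.11 and 0.40 in WT OVA replicates 5, 6 and 9. In DJ1_KO_OVA_263, DJ1_KO_OVA_266 and DJ1_KO_OVA_267 it was -0.47, 0.23 and -0.30. DJ1_KO_OVA_266 thus lay within the WT OVA range, DJ1_KO_OVA_263 lay below every wild-type library, and DJ1_KO_OVA_267 below all of them but WT PBS replicate 3. WT OVA replicate 9 was the highest library for 45 of the 76 genes. The lowest library was DJ1_KO_OVA_263 for 35 genes, WT PBS replicate 3 for 22 and DJ1_KO_OVA_267 for 11. Of the 76 genes, 65 were below every WT OVA library in DJ1_KO_OVA_263, 65 in DJ1_KO_OVA_267 and 24 in DJ1_KO_OVA_266. The wild-type libraries given PBS were alike in this, with 53, 21 and 65 genes in WT PBS replicates 1, 2 and 3. The position below WT OVA is therefore not particular to the knockout. The shares over all genes are not given.

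The summed FPKM of the genes showed the same split. It was 1284, 1515 and 957 in WT PBS replicates 1, 2 and 3, 1705, 1413 and 1842 in WT OVA replicates 5, 6 and 9, and 781, 1486 and 882 in the 3 knockout libraries. As a share of all FPKM in the library the order was less clear, at 0.244% to 0.275% in WT PBS, 0.248% to 0.306% in WT OVA and 0.230% to 0.314% in DJ-1 KO OVA. With the libraries rescaled to equal FPKM sums, the median deviations drew together, to between -0.12 and -0.04 in WT PBS, -0.13 and 0.08 in WT OVA, and -0.03 and 0.24 in DJ-1 KO OVA. That scaling moved all genes. In DJ1_KO_OVA_263, DJ1_KO_OVA_266 and DJ1_KO_OVA_267 the median deviation of all tested genes became 0.45, -0.01 and 0.20, beside 0.11, 0.24 and -0.03 for the members. It was -0.27 to -0.23 for all tested genes in WT OVA and -0.19 to 0.18 in WT PBS.

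**Figure D1:**
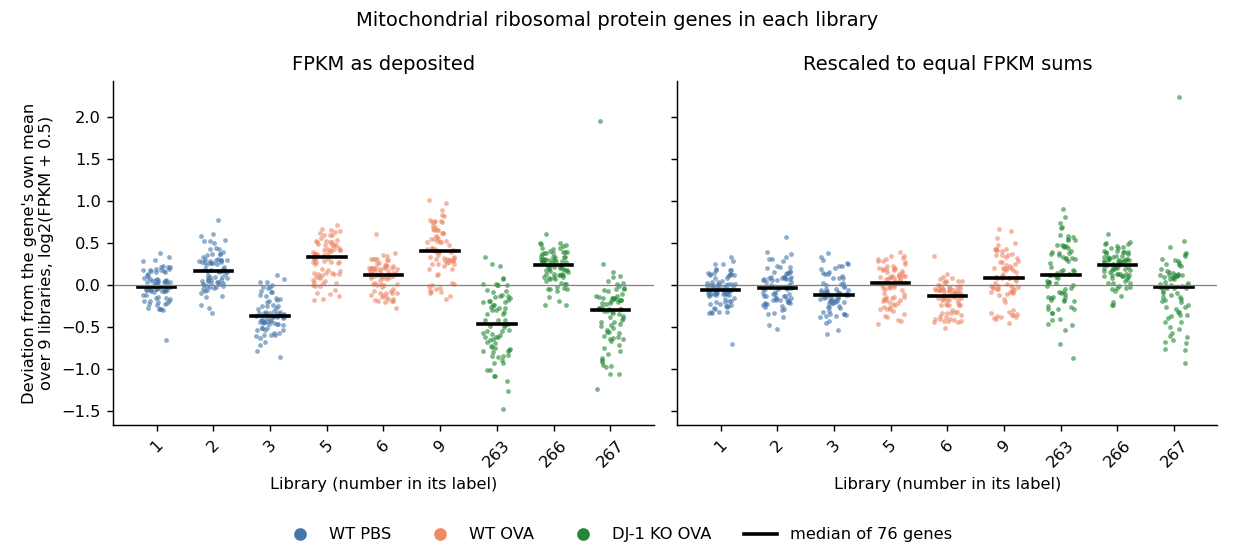
Deviation of each of 76 mitochondrial ribosomal protein genes from its own mean over 9 libraries, on the log2(FPKM + 0.5) scale, by library; points are genes, colours are groups and black lines are medians. With the deposited values (left) DJ1_KO_OVA_263 and DJ1_KO_OVA_267 have medians of -0.47 and -0.30 and DJ1_KO_OVA_266 one of 0.23; with equal FPKM sums (right) the group medians lie closer together, and the single point above 1.5 is Mrps23 in DJ1_KO_OVA_267.

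The first comparison sets WT OVA beside WT PBS and asks how ovalbumin challenge alters the wild-type lung. No member passed the test in either direction (limma on log2(FPKM + 0.5) over 17716 genes, Benjamini-Hochberg adjusted p below 0.05), and over all genes 0.00564% were called higher and 0 lower, so the test made almost no calls anywhere. At an unadjusted p below 0.05 there were 2 of 76, against 6.47% of all genes. The differences nevertheless leaned to one side: 68 of 76 were above 0, compared with 50.5% of all genes, with a median of 0.37 against 0.00 for all tested genes. With equal FPKM sums the members' median became 0.072 and 23 of them were below 0. The median of all genes was then -0.22, with 13232 of 17716 below 0. The members are short genes, and over 13863 coding genes the difference also varied with transcript length (rank correlation -0.44 across genes, which are not independent replicates). With a coding part under 400 bases the median was 0.46 for 13 members and 0.35 for 818 other coding genes. From 400 to under 600 bases it was 0.44 for members and 0.20 for others, and from 600 to under 900 bases 0.29 and 0.10. From 900 to under 1500 bases it was 0.24 and 0.01. By transcript length it was 0.41 and 0.42 under 750 bases, and 0.42 and -0.10 at 2500 bases and over. With the trend on exon-union length removed from each library, the members' median was 0.29 and 8 of the 76 were below 0. With the trend on transcript length removed from each library, an alternative chosen after the data had been seen, the members' median was 0.15. In that setting 17 of the 76 were below 0. The replicate values of the groups did not overlap for 15 genes that were higher after OVA, where 7.25% of all genes did so, and for 2 that were lower, Mrps30 and Mrps27, where 7.52% of all genes did so.

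Mrpl12, the protein of the flexible stalk that contacts translation factors, had 43.9, 50.6 and 24.2 FPKM in the WT PBS libraries and 68.6, 52.3 and 68.1 in those of WT OVA. The groups did not overlap, and WT PBS replicate 3 was the lowest. Its difference of 0.72 (SE 0.35), the largest of the 76, had an adjusted p of 0.73 (limma). Next came Mrpl14 (0.65), Mrpl51 (0.65), Mrpl41 (0.61) and Mrps36 (0.59), each with the same adjusted p. The 5 lowest differences were those of Mrps30 (-0.19), Mrpl4 (-0.16), Mrpl43 (-0.15), Mrps18b (-0.10) and Mrps27 (-0.09), with adjusted p from 0.76 to 0.90. Mrpl4 lines the tunnel through which the new protein leaves the ribosome.

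The second comparison sets DJ-1 KO OVA beside WT OVA and asks what loss of DJ-1 changes in the challenged lung. It shares the WT OVA libraries with the first comparison, so a gene high in those libraries reads higher in the first and lower in the second. Of the 76 genes 7 fell and 0 rose (9.21% lower), while over all genes 8.24% were called lower and 5.93% higher: the share of members called was near that of all genes. Of the 76 differences 68 were below 0, compared with 50% of all genes, with a median of -0.40 against 0.00. The sign of the median depended on the scaling. With equal FPKM sums 29 of the 76 were below 0 and the median was 0.14. Of all 17716 genes 4281 were below 0 with that scaling, and their median was 0.46. With the trend on transcript length removed 41 members were below 0, with a median of -0.085. The replicate values did not overlap for 22 genes that were lower in the knockout (18.8% of all genes) and for 4 that were higher (18.4%). At an unadjusted p below 0.05 there were 24 of 76, against 35.2% of all genes.

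**Figure D2:**
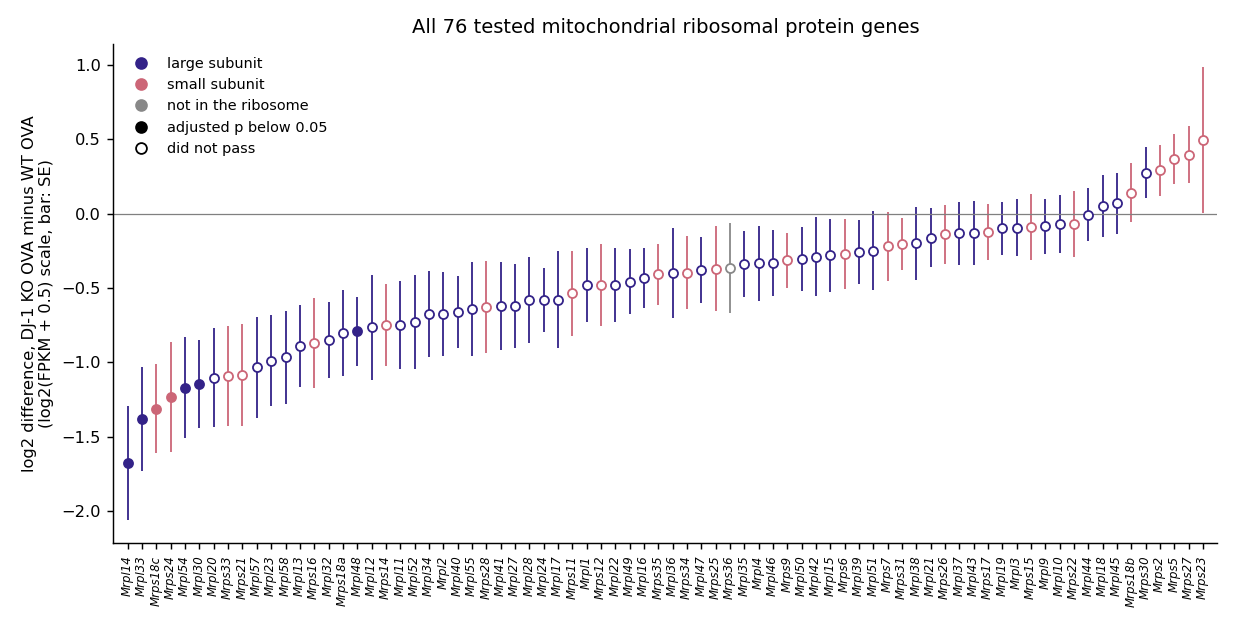
Difference between DJ-1 KO OVA and WT OVA for each of the 76 tested genes, on the log2(FPKM + 0.5) scale, in order of size, with its SE as the bar; colours give the subunit and filled points are genes with an adjusted p below 0.05. The 7 filled points all lie below 0, and 8 genes at the right lie above it.

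Of the 7 that fell, 5 belong to the large subunit, as do 50 of the 76 tested. Mrpl14, a large-subunit protein at the face that meets the small subunit, had 116, 108 and 143 FPKM in the WT OVA libraries and was at 24.9, 71.3 and 29.6 in the 3 knockout libraries. All 3 knockout values lay below all wild-type OVA values, with DJ1_KO_OVA_266 between the other 2 and the wild type. Its difference was -1.68 (SE 0.38, adjusted p = 0.025, limma), the largest of the 76. In WT PBS it was at 80.0, 106 and 53.9 FPKM.

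Mrpl33, a very small large-subunit protein with a bacterial counterpart, was at 12.4, 11.0 and 17.6 FPKM in WT OVA and 3.35, 7.87 and 4.21 in DJ-1 KO OVA, in the same order of replicates. It fell by 1.38 (log2; SE 0.35, adjusted p = 0.032, limma). Its ETS match and the NRF1 match of Mrpl14 are in the windows printed above. Mrpl30 was at 29.5, 26.3 and 36.6 FPKM in WT OVA and at 11.6, 19.9 and 10.7 in the knockout, and fell by 1.14 (SE 0.29, adjusted p = 0.034). Mrpl54, a protein specific to mitochondria, was at 97.7, 76.4 and 100 FPKM and at 28.7, 70.8 and 31.5, and fell by 1.17 (SE 0.34, adjusted p = 0.047). In each of the 3 genes DJ1_KO_OVA_266 was the highest of its group and still below the wild-type OVA libraries. Mrpl48, a protein of the central protuberance at the top of the large subunit, had means of 5.95 ± 0.69 FPKM (SD, n = 3) in WT OVA and 3.28 ± 0.91 in the knockout, and fell by 0.79 (SE 0.23, adjusted p = 0.047, limma across all genes).

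The other 2 belong to the small subunit. Mrps18c was at 22.5, 18.2 and 27.9 FPKM in WT OVA and at 7.51, 12.4 and 7.26 in DJ-1 KO OVA, and fell by 1.31 (SE 0.30, adjusted p = 0.025, limma). Mrps24, the counterpart of bacterial S3 at the entry of the messenger RNA, was at 63.5, 49.9 and 68.3 FPKM and at 18.1, 46.0 and 19.1, and fell by 1.24 (SE 0.37, adjusted p = 0.0498). Its DJ1_KO_OVA_266 lay close to the lowest wild-type OVA library. Mrps21, with the highest level of all, was at 116 ± 26.0 FPKM (SD, n = 3) in WT OVA and 57.2 ± 26.0 in the knockout and did not pass (-1.09, adjusted p = 0.057, limma across all genes). Mrpl52 was at 83.7 ± 9.11 and 54.0 ± 26.3 FPKM, with a difference of -0.73 and an adjusted p of 0.13. Its difference turned to 0.32 with the trend on transcript length removed from each library.

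The 3 genes named Mrps18 encode related proteins that occupy different places: Mrps18c holds the position of bacterial S18, Mrps18b lies elsewhere in the small subunit and Mrps18a in the large subunit. Mrps18c fell, as given above. Mrps18a, whose window holds both an ETS and a YY1 match, was at 12.1, 10.2 and 12.7 FPKM in WT OVA and at 4.57, 10.4 and 5.54 in the knockout, so that DJ1_KO_OVA_266 lay inside the wild-type range, and its difference of -0.80 did not pass (SE 0.29, adjusted p = 0.080, limma). Mrps18b was at 5.01, 3.64 and 4.19 FPKM and at 3.92, 5.84 and 4.60, with groups that overlapped and a difference of 0.14 (SE 0.20, adjusted p = 0.64). The differences between the 3 genes were not tested.

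At the upper end none passed the test with the deposited values. Mrps27, a small-subunit protein of the pentatricopeptide repeat type, was at 4.63, 4.59 and 4.76 FPKM in WT OVA and at 5.26, 8.28 and 5.68 in DJ-1 KO OVA, with a difference of 0.40 (SE 0.19, adjusted p = 0.17, limma). Mrps5 was at 2.99, 2.79 and 3.12 and at 3.97, 4.48 and 3.54 FPKM (0.37, adjusted p = 0.15), and Mrps2, the counterpart of bacterial S2, at 3.41, 3.78 and 3.55 and at 4.91, 4.0 and 4.59 FPKM (0.29, adjusted p = 0.25). Mrps30 averaged 1.68 ± 0.09 FPKM (SD, n = 3) and 2.14 ± 0.30 (0.28, adjusted p = 0.26, limma across all genes). These were the 4 genes whose knockout libraries all lay above all WT OVA libraries. With equal FPKM sums all 4 passed, along with Mrpl18, Mrpl45 and Mrps18b, making 7 higher (25% of all genes) and 3 lower (Mrpl14, Mrpl33 and Mrps18c; 3.4% of all genes).

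Mrps23 had the most positive difference, 0.50 (SE 0.49, adjusted p = 0.49, limma), which 1 library set. It was at 1.24, 1.31 and 1.01 FPKM in WT OVA and at 0.88, 0.98 and 6.08 in DJ-1 KO OVA, and at 0.57, 0.94 and 0.67 in WT PBS. DJ1_KO_OVA_267 held 232 reads of it, and no other library held more than 47. Without that library the difference was -0.24. Mrps36, which is not a ribosomal subunit, was at 21.1 ± 4.61 FPKM (SD, n = 3) in WT OVA and 16.6 ± 5.93 in the knockout (-0.37, adjusted p = 0.40, limma across all genes). Its difference turned to 0.23 with equal FPKM sums.

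**Figure D3:**
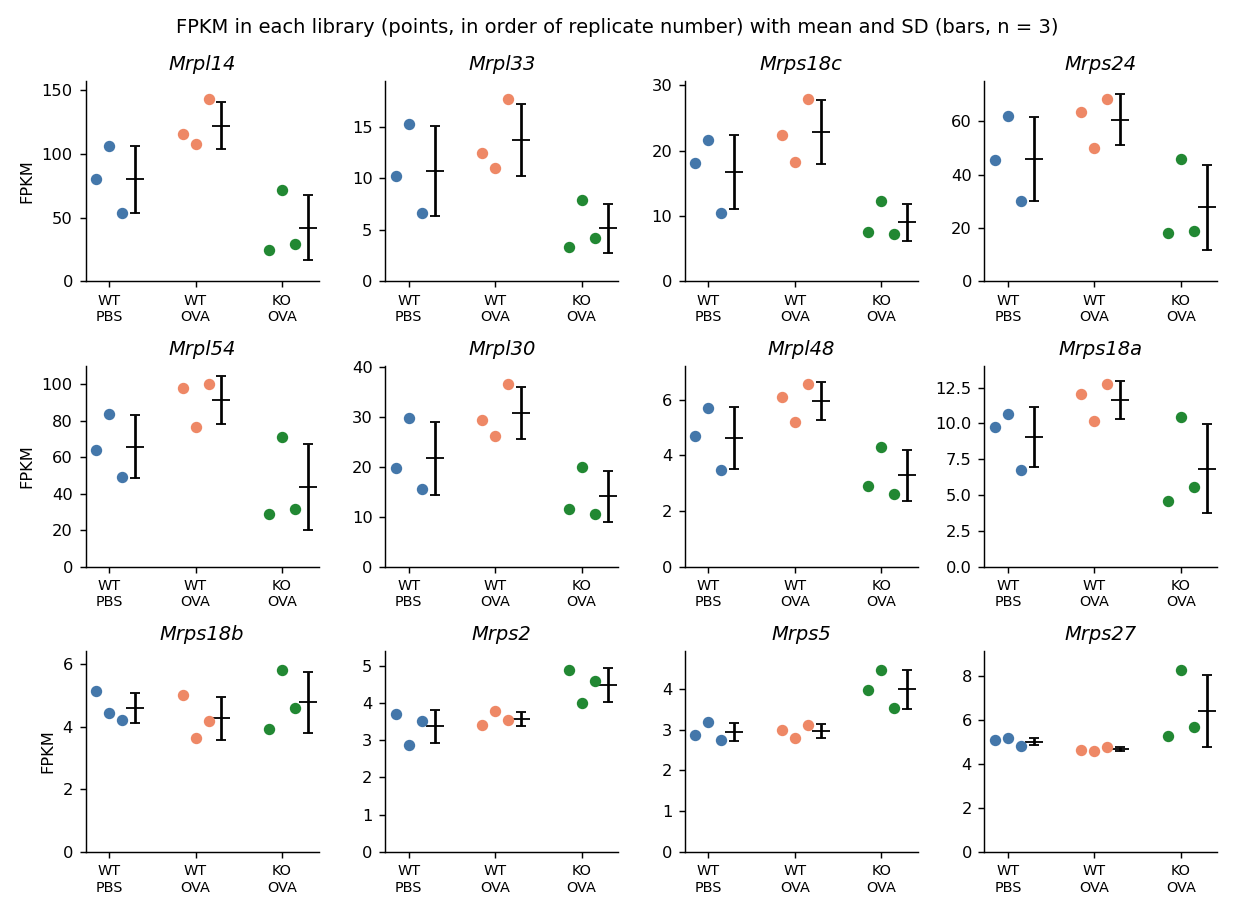
FPKM of 12 genes in each library, by group; points are libraries in order of replicate number and bars are the mean and SD (n = 3), with each vertical axis starting at 0. The 7 genes that passed in DJ-1 KO OVA against WT OVA come first, and in each of them the middle knockout point, DJ1_KO_OVA_266, is the highest of its group; Mrps2, Mrps5 and Mrps27 are higher in the knockout without passing.

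The calls rested on the make-up of the groups. Without DJ1_KO_OVA_266, 37 of the 76 genes were called lower, where 16.8% of all genes were, and the median difference was -0.61. All 7 genes were among the 37. Without DJ1_KO_OVA_263, without DJ1_KO_OVA_267, or without WT OVA replicate 5, 6 or 9, 0 members were called, where 3.1%, 0.909%, 1.91%, 1.75% and 1.79% of all genes were called lower. Without WT PBS replicate 1, 2 were called (Mrpl14 and Mrps18c; 4.39% of all genes), without WT PBS replicate 2, 7 (7.67%), and without WT PBS replicate 3, 12 (8.2%). The median difference stayed below 0 in each of these 9 fits. With no filter on low values, which adds genes to the adjustment, 0 members were called (1.22% of all genes). Keeping genes with a mean FPKM of 1 or more gave 14 (12.2%), fitting the OVA groups alone 3 (4.13%), and limma-voom on the recovered reads 15 (10.1%), all lower. Relative to the median of all genes, that of the members was lower with the deposited values and with equal FPKM sums.

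By subunit, the median difference between the OVA groups was -0.48 for the 50 tested large-subunit genes, 5 of them called lower, and -0.31 for the 25 of the small subunit, 2 of them called lower. It was -0.53 for the 45 genes with a bacterial counterpart and -0.30 for the 30 specific to mitochondria, with 5 and 2 called. The shares called lower were 10% and 8% by subunit and 11.1% and 6.67% by origin, near the 8.24% of all genes. The medians are descriptions, and their differences were not tested. With equal FPKM sums they were 0.08, 0.25, 0.05 and 0.29.

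The members are short genes, and in these libraries the difference between the OVA groups varied with length over all coding genes. A single GENCODE transcript per gene had a median length of 1284 bases for the 76 genes and of 2812 bases for 13787 other coding genes; the coding lengths were 582 and 1341 bases. Across genes, which are not independent replicates and share the same libraries, the rank correlation of the difference with coding length was 0.58 over the 76 genes and 0.49 over 13863 coding genes. With transcript length it was 0.39 and 0.53. In the shortest coding class, under 400 bases, the median difference was -0.68 for 13 members and -0.67 for 818 other genes. From 400 to under 600 bases it was -0.62 for 26 members and -0.41 for 1127 others, from 600 to under 900 bases -0.33 for 22 and -0.20 for 2006, and from 900 to under 1500 bases -0.13 for 15 and 0.00 for 3859. No member reached 1500 bases, where the other 5977 genes had a median of 0.32.

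By transcript length, members and other genes differed by less than 0.1 in each class under 2500 bases. At 2500 bases and over the median was -0.39 for 20 members and 0.26 for 7905 others. Those 20 members join a long transcript to a short coding part, as in Mrpl48 with 4285 and 633 bases or Mrpl17 with 7300 and 528. With the trend on transcript length removed, 5 were called lower (Mrpl14, Mrpl32, Mrpl48, Mrpl57 and Mrpl58; 6.45% of all genes) and 4 higher (Mrpl42, Mrps15, Mrps18b and Mrps27; 6.65%). With the trend on exon-union length removed, the median was -0.25, with 7 lower (5.53%) and 1 higher, Mrps27 (5.21%). The difference also fell with level: its rank correlation with mean FPKM was -0.57 over the 76 genes and -0.18 over 13863 coding genes.

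**Figure D4:**
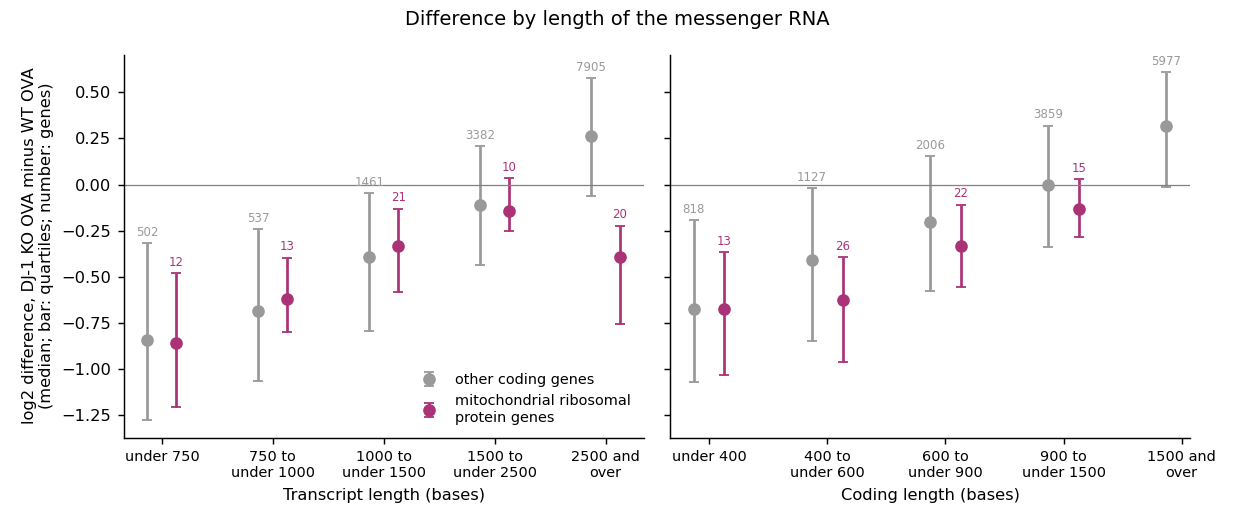
Median difference between DJ-1 KO OVA and WT OVA (points, log2(FPKM + 0.5) scale) with quartiles (bars) in classes of transcript length (left) and coding length (right), for members and other coding genes; small numbers give the genes in each class. Both sets climb with coding length, from -0.68 and -0.67 under 400 bases to -0.13 and 0.00 from 900 to under 1500 bases, and they part in the longest class of transcript length.

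The third comparison, DJ-1 KO OVA against WT PBS, shares libraries with both others. No member passed in it, where 4.07% of all genes were called higher and 4.47% lower (limma), and 4 of 76 had an unadjusted p below 0.05, against 26.4% of all genes. Of the 76 differences 48 were below 0, and the median was -0.10 against 0.00 for all genes. The sign of the median turned under some settings. With equal FPKM sums 22 members were below 0 and their median was 0.18. Of all 17716 genes 5807 were below 0 with that scaling, and their median was 0.24. With the transcript length trend removed 34 members were below 0 and their median was 0.084. With the exon-union length trend removed 40 were below 0 and the median was -0.013. The groups did not overlap for 3 genes, Mrps2, Mrps5 and Mrps27, all higher in the knockout (12.7% of all genes), and for 0 lower (12.9%). The lowest differences were those of Mrpl14 (-1.03, adjusted p = 0.12), Mrpl33 (-0.997, adjusted p = 0.10), Mrps18c (-0.83, adjusted p = 0.11), Mrps24 (-0.79, adjusted p = 0.20) and Mrpl54 (-0.68, adjusted p = 0.24). The highest were those of Mrps23 (0.97, adjusted p = 0.24), Mrpl51 (0.40, 0.36), Mrps5 (0.38, 0.18), Mrps2 (0.37, 0.20) and Mrpl18 (0.36, 0.30), the last being the counterpart of a bacterial protein that binds 5S RNA. Without DJ1_KO_OVA_266 the members' median was -0.28 and 12 members were called lower, where 11.3% of all genes were.

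The partners of these proteins in the ribosome were read from lists. Of the 5 genes for mitochondrial ribosomal proteins that go by other names, 0 passed in any comparison. Between the OVA groups Chchd1 (-1.14, adjusted p = 0.063) and Aurkaip1 (-1.03, adjusted p = 0.060), both small-subunit proteins, had knockout libraries below all WT OVA libraries, and Gadd45gip1 was at -0.63 (adjusted p = 0.16), while Dap3 (0.01) and Ptcd3 (0.18) differed by less than their SE (limma). Both ribosomal RNAs fell: mt-Rnr1, of the small subunit, was at 920, 794 and 1025 FPKM in WT OVA and at 222, 407 and 224 in the knockout (-1.73, adjusted p = 0.017), and mt-Rnr2, of the large subunit, averaged 1080 ± 146 FPKM and 444 ± 92.0 (SD, n = 3; -1.29, adjusted p = 0.033, limma across all genes). In WT OVA against WT PBS they differed by 0.56 and 0.38, and neither passed. The 2 RNAs summed to 1706 to 2214 FPKM in WT OVA, where the 13 mitochondrially encoded protein genes summed to 34484.5 to 36948. How the preparation treated ribosomal RNA is not given here, so the FPKM of mt-Rnr1 and mt-Rnr2 need not follow their amount in the cells.

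The machinery that serves the ribosome was also read from lists, and its genes lay on both sides of 0 with the deposited values. With equal FPKM sums, where the median of all genes was 0.46 and 25% were called higher, nearly all lay above 0: 1 of 16 translation factors was below 0, and 0 of 25 assembly genes, 0 of 17 synthetases and 0 of 12 transcription genes were. That scaling called 6 translation factors, 3 assembly genes, 10 synthetases, 3 transcription genes and 5 of 9 biogenesis regulators higher and none lower, with medians of 0.68, 0.42, 0.73, 0.40 and 1.11. The values in the next sentences are those with the deposited scaling. Of 16 mitochondrial translation factors 2 rose and 1 fell between the OVA groups, with a median of 0.18. Gfm1, the elongation factor that moves the ribosome along the messenger, was at 5.03, 4.45 and 4.51 FPKM in WT OVA and at 8.49, 8.56 and 10.9 in DJ-1 KO OVA, and rose by 0.92 (SE 0.17, adjusted p = 0.014, limma). Lrpprc, which binds and stabilises mitochondrial messenger RNA, was at 1.73, 1.79 and 1.72 FPKM and at 4.50, 2.61 and 4.41, and rose by 0.92 (adjusted p = 0.028). Its binding partner Slirp was at 1.46, 0.77 and 1.26 FPKM and at 0.23, 0.49 and 0.37, and fell by 0.94 (adjusted p = 0.044). In all 3 genes the groups did not overlap, and Slirp encodes a far shorter protein than Lrpprc.

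Of 25 genes of ribosome assembly and ribosomal RNA modification 1 rose, the GTPase Noa1 (0.69, adjusted p = 0.034, limma), and the helicases Ddx28 (0.42, adjusted p = 0.13) and Dhx30 (0.43, adjusted p = 0.16) came next; the median was -0.11. Of 17 mitochondrial aminoacyl-tRNA synthetases, which charge the transfer RNAs, 2 rose, Iars2 (0.75, adjusted p = 0.036) and Yars2 (0.82, adjusted p = 0.047), with Tars2 at 0.50 (adjusted p = 0.089), and the median was 0.31. Of 12 genes of mitochondrial transcription and DNA maintenance 0 passed; the helicase Twnk was at 0.43 (adjusted p = 0.11), the kinase Dguok at -0.46 (0.13) and the DNA-packing protein Tfam at -0.52 (0.16). Of 9 regulators of mitochondrial biogenesis 2 rose, the coactivator Ppargc1b (0.55 ± 0.31 FPKM in WT OVA and 2.01 ± 0.76 in the knockout, SD, n = 3; 1.26, adjusted p = 0.020, limma across all genes) and Myc (1.04, adjusted p = 0.039), with the related coactivator Pprc1 at 0.71 (0.054). Against WT PBS, Gfm1 (0.83, adjusted p = 0.018), Lrpprc (0.81, adjusted p = 0.048) and Ppargc1b (1.32, adjusted p = 0.016) also passed in the knockout, while Gfm2, a ribosome recycling factor, was at 0.60 (0.054), Noa1 at 0.53, Iars2 at 0.68 (0.059), Myc at 0.88 and Gabpa, an ETS factor, at 0.44. In WT OVA against WT PBS 0 genes of these lists passed.

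The gene groups most like the members had lower medians between the OVA groups. Of 79 tested cytosolic ribosomal protein genes 45 fell, with a median of -1.29, or -0.67 with equal FPKM sums. Of 81 nuclear-encoded genes for respiratory chain and ATP synthase subunits 15 fell and 1 rose, with a median of -0.81, or -0.19 with equal FPKM sums. Of the 13 mitochondrially encoded genes whose messenger RNA this ribosome translates, 9 fell in RNA level, with a median of -1.45, or -0.83 with equal FPKM sums. Protein was not measured. The members, at -0.40 and 0.14, thus lay nearer to the median of all genes than any of the 3 groups did. These lists differ from the members in length and level, and the differences between lists were not tested.

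**Figure D5:**
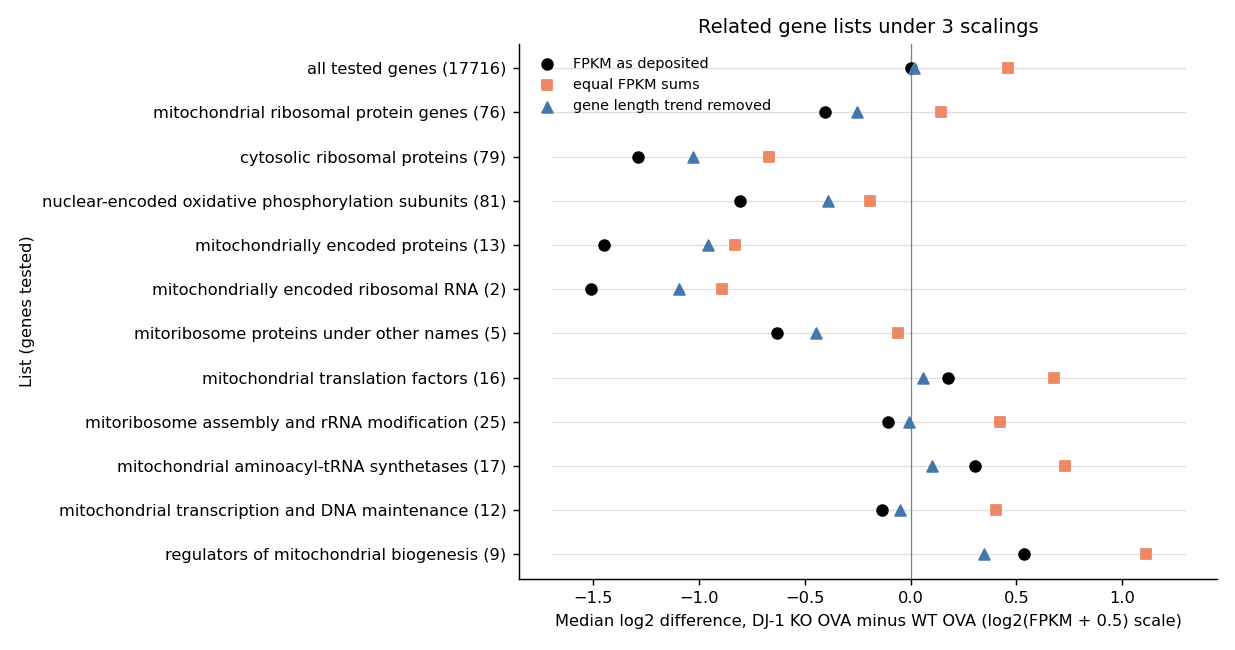
Median difference between DJ-1 KO OVA and WT OVA (log2(FPKM + 0.5) scale) of the members and related gene lists, with the number of genes tested in brackets, for the deposited values (circles), equal FPKM sums (squares) and with the gene length trend removed (triangles). The members lie at -0.40, 0.14 and -0.25, between the cytosolic ribosomal proteins at -1.29, -0.67 and -1.03 and the mitochondrial translation factors at 0.18, 0.68 and 0.06.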

How the data were processed

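The deposited table gives FPKM for 55851 genes in 9 libraries, per the file headers. Total RNA went into an Illumina TruSeq preparation, per the labels' protocols. Trimmomatic, HISAT2, HTSeq and the build GRCm38.p6 are named as the authors' tools, per the submitters' processing notes, with no version or role here. FPKM times gene length was a whole multiple of 1 step for 100% of values within 0.01 reads, so reads were recovered, and the library sizes behind the deposited FPKM equalled median-of-ratios size factors of those reads. Gene lengths match the exon unions of GENCODE M21 for all 78 genes. From the table, log2(FPKM + 0.5) was computed for 17716 genes (mean FPKM 0.2 or more), and 1 limma-trend fit (limma 3.58.1, R 4.3.3) with 3 group means and 6 residual degrees of freedom gave the 3 comparisons. Calls required a Benjamini-Hochberg adjusted p below 0.05 over all tested genes; differences on this scale understate changes of low genes. The fit was tested on simulated reads. In each comparison 100 of 17716 genes were changed 2-fold and 100 were changed 4-fold. Over the 3 comparisons the fit recovered 23% to 27% of genes changed 2-fold and 74% to 84% of those changed 4-fold, with 2 to 8 false calls. Between the OVA groups 14.2% of all genes were called, and the members shifted together by library. Whether the recovery and the false calls hold under such conditions was not tested. A gene that did not pass may thus still differ by 2-fold. An exact permutation test of 3 against 3 libraries cannot give a two-sided p below 0.1.

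The genes described and all lists were chosen with earlier results of these data known. Named in each comparison are the called members, the 5 highest and 5 lowest differences, the Mrps18 genes, Mrps30, Mrps36, the 3 highest and 3 lowest levels, and up to 3 genes of each list by p. Of the list genes taken by this rule, 1 is not reported here. Where Mrpl17, Mrpl45, Mrps22 and the members called under alternatives are named, they were chosen after their values were seen. A count model was not the main test because the deposited unit is FPKM; limma-voom on the recovered reads was an alternative. Other alternatives changed the pseudocount, filter, scaling, length correction and the libraries in the fit.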

Additional observations from a re-analysis of the deposited data

How the results depend on the processing

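No paired analysis was possible because the groups share no replicate numbers. With equal FPKM sums the median difference of the mitochondrial ribosomal protein genes was 0.072 for WT OVA against WT PBS, 0.14 between the OVA groups and 0.18 for the knockout against WT PBS, with all genes at -0.22, 0.46 and 0.24. Between the OVA groups that scaling called 7 members higher (25% of all genes) and 3 lower (3.4%). Removing the trend on exon-union length called 1 higher in this comparison (5.21% of all genes) and 1 against WT PBS (5.09%). Removing that on transcript length called 4 (6.65%) and 3 (6.96%) higher and brought the median between the OVA groups to -0.085. The count of 7 lower (8.24% of all genes) became 0 with no filter (1.22%) and 14 over genes whose mean FPKM reached 1 (12.2%). It was 3 in a fit of these 2 groups (4.13%) and 15 with limma-voom (10.1%). With a library left out it ran from 0 to 37, where 0.909% to 16.8% of all genes were called lower. Without a filter 30389 genes were tested in place of 17716; otherwise the cause was not tested. Against WT PBS, 0 to 12 knockout members were called lower with a library left out, where 1.29% to 11.3% of all genes were. All other settings kept these counts within 1.5 times. Where leaving out a library gave a group 2 libraries, the spread was pooled over the 3 groups.

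Some single genes changed sign, Mrpl52 (-0.73 between the OVA groups with the deposited values), Tfam (-0.52), Mrps23 (0.50) and Dguok (-0.46) among them. With equal FPKM sums, WT OVA against WT PBS gave -0.032 for Ptcd3, -0.011 for Mrrf, -0.18 for Dap3, -0.056 for Gadd45gip1 and -0.0049 for Park7, and DJ-1 KO OVA against WT OVA gave 0.23 for Mrps36, 0.11 for Dguok and 0.064 for Tfam. With the transcript length trend removed, WT OVA against WT PBS gave -0.0052 for Mrps21 and -0.14 for Mrpl52. The second comparison then gave 0.32 for Mrpl52, 0.40 for Mrps36, 0.034 for Dguok and -0.31 for Dap3, and the third 0.19 for Mrpl52 and -0.073 for Dap3. With the exon-union length trend removed, the second gave 0.047 for Mrps36, -0.23 for Dap3 and -0.083 for Ptcd3, and the third -0.071 for Mrps30 and -0.029 for Dap3. Quantile normalization gave -0.038 for Dap3 between the OVA groups and -0.032 for Mrps18b in the knockout against WT PBS. With a library left out, the second comparison ran from -0.24 to 0.89 for Mrps23 and from -0.10 to 0.12 for Dap3, and the third from -0.10 to 0.16 for Mrps18b and from -0.019 to 0.50 for Mrps36. Depth limits Mrps23 most, with 19 reads in its lowest library.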

Other observations

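Pseudogene copies of these genes, chosen after their values were seen, also carried reads. Mrpl23-ps1, an intronless copy of Mrpl23, had 11.6, 8.20 and 12.7 FPKM in the WT OVA libraries and 4.91, 6.35 and 4.44 in the knockout libraries, and fell by 0.97 on the log2 scale (limma, Benjamini-Hochberg adjusted p = 0.032). Mrpl48-ps averaged 3.58 ± 1.33 FPKM (SD, n = 3) and 1.73 ± 0.18 (adjusted p = 0.080, limma across all genes), and Mrps36-ps1 2.46 ± 0.50 and 1.01 ± 0.48 (adjusted p = 0.051). Mrps36-ps2 was near its floor, at 0.70 and 0.44 FPKM, and Mrps36-ps3 was listed at 0. How reads that match both a gene and its copy were assigned is not given among the sources, so the values of Mrpl23, Mrpl48 and Mrps36 and of their copies are uncertain in the same way.

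Some neighbours that share a start region, chosen after their values were seen, did not share a direction of difference. No count over all 18 head-to-head members is given. Mrps12 was at -0.48 between the OVA groups and its head-to-head neighbour Sars2, which charges the mitochondrial serine transfer RNA and whose start lies 172 bases away, at 0.37; neither passed (limma, adjusted p = 0.20 for Sars2). Mrpl43 and the helicase Twnk overlap, with 33.4% of the exon bases of Mrpl43 shared, so its reads are uncertain. Their differences were -0.13 and 0.43.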
